A study of Mus musculus with 27 samples.

Results

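The neural crest regulators described here are 10 transcription factor genes, Tfap2a, Pax3, Pax7, Foxd3, Sox9, Sox10, Snai1, Snai2, Twist1 and Ets1. They were taken by their gene symbols from a table of 24065 genes measured by RNA-Seq in whole mouse embryos at embryonic day (E)8.5, in which each symbol matched 1 row. The embryos were C57BL/6J littermates, 3 of them WT and 3 Dnmt3b-/-, from matings of heterozygous parents, with 1 library for each embryo. The Dnmt3b-/- embryos lack in every cell the exons that encode the catalytic part of DNMT3B, a de novo DNA methyltransferase, because a floxed allele had been deleted in the germline with an ACTB-Cre deleter line. The 6 libraries are part of a series of 27 samples, and its 21 methylation samples were not analysed here. The question put to these genes is whether the regulators of the neural crest are at other transcript levels in embryos without DNMT3B activity.

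The neural crest is a population of cells that forms at the border between the neural plate and the surface ectoderm, leaves the dorsal neural tube by an epithelial-to-mesenchymal transition (EMT), migrates, and gives rise to facial skeleton, peripheral neurons, glia and pigment cells. At E8.5 cranial crest is forming and leaving the neural folds. WNT, BMP and FGF signals first induce border genes such as Tfap2a, Pax3 and Pax7, the crest specifiers Foxd3, Sox9 and Sox10 follow, and Snai1, Snai2, Twist1 and Ets1 take part in EMT and migration. None of these genes belongs to the crest alone. Pax3 and Pax7 also mark dorsal neural tube and somites, Sox9 cartilage precursors and the otic placode, Twist1 and Snai1 mesoderm, and Ets1 endothelium. The RNA came from whole embryos, and fewer cells of a type and less RNA per cell therefore cannot be told apart.

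DNMT3B methylates cytosines in CG dinucleotides (CpGs), and regulators of this kind usually have CpG-rich promoters. To show what such DNA looks like, the 250 bases before the transcription start are given for Foxd3, Snai1 and Twist1, 5′ to 3′ on the strand of the gene, with each CpG in capitals. The sequences are from RefSeq on the GRCm38.p6 build, whose chromosomes are those of the mm10 genome to which the reads were aligned. Foxd3 is shown for chr4:99656049-99656298 (plus strand, 21 CpGs), Snai1 for chr2:167537945-167538194 (plus strand, 27 CpGs) and Twist1 for chr12:33957421-33957670 (plus strand, 18 CpGs).
Foxd3: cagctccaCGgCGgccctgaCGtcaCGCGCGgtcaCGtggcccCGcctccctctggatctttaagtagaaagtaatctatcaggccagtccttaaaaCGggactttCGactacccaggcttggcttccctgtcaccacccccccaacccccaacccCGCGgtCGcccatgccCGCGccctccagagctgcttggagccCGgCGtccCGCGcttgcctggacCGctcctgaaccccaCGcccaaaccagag
Snai1: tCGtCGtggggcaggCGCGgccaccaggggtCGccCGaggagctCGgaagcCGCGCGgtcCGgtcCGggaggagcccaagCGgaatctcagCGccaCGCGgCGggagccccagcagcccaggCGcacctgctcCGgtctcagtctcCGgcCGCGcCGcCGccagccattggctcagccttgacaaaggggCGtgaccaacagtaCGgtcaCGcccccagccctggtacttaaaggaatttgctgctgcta
Twist1: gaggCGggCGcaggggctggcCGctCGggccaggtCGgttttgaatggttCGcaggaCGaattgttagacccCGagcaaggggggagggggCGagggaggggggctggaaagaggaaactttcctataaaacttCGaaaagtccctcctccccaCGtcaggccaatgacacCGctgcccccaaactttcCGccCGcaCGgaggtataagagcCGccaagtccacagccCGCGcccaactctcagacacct
The table of promoters held 6 windows for 5 of the 10 genes, and the 3 not printed, 2 of Tfap2a and 1 of Pax7, had 10, 10 and 13 CpGs. Among all 32851 promoter windows of the same length the median was 6 CpGs, with quartiles at 2 and 16. The Snai1 window had more CpGs than 91.4% of all windows, the Foxd3 window more than 83.7% and the Twist1 window more than 78.3%. Snail proteins bind the E-box CACCTG, which reads CAGGTG on the other strand. Searched on both strands, it was found once in the Snai1 window and in none of the other 5, while 17.2% of all windows hold it. No methylation value of these windows was used, and Sox9, Sox10, Snai2, Ets1 and Pax3 are named only.

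The total counts on genes ran from 41489332 to 58470286 per embryo, and the members had between 90 and 7005 raw counts in an embryo, so that counting error was small for all 10. A limit of 3 counts would equal 2.38 to 3.5 normalized counts, far under every member. Normalized counts are raw counts scaled by the TMM method to the mean library size. Dnmt3b, the targeted gene (chromosome 2, 153649411 to 153687730, plus strand), was at 7287, 14003 and 6301 normalized counts in WT embryos 1, 2 and 3 and at 4076, 4557 and 4756 in Dnmt3b-/- embryos 1, 2 and 3, and this count adds the deleted and the remaining exons. On the log2 scale Dnmt3b-/- less WT was -1.04 (95% interval -1.65 to -0.43, adjusted p = 0.0169, edgeR quasi-likelihood test), and -0.61 without WT embryo 2.

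WT embryo 2 stood apart from the other WT embryos. Of 8 marker genes of extraembryonic endoderm, the yolk sac lineage, it was the highest WT embryo in 8 (35.9% of all tested genes), with a summed 179227 normalized counts against 56384 and 20532 in WT embryos 1 and 3 and 11019 to 39803 in the Dnmt3b-/- embryos. It was also highest in 9 of 9 primitive streak and tailbud markers, genes of the youngest posterior tissue. Its 7 primitive erythroid markers summed to 12193, against 45812 and 67926 in the other WT embryos and 15389 to 43785 in the Dnmt3b-/- embryos. The part of these differences in the results was not tested, and the genotype differences, the order of the WT levels and the paralog ratios of the 10 genes are given with and without this embryo.

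All 10 genes were expressed well enough to be tested. Sox9 and Snai2 rose in Dnmt3b-/- embryos, by 1.56-fold and 1.71-fold, and 0 of the 10 genes fell. At the same threshold, an adjusted p below 0.05 in the edgeR quasi-likelihood test with Benjamini-Hochberg adjustment over 15114 genes, 35.7% of all tested genes differed, with 17.6% higher and 18.1% lower in Dnmt3b-/- embryos. The 2 of 10 is thus no larger a share than among all genes. At the threshold of the study, which also asks for a fold change above 2, none of the 10 genes was called, against 5.90% of all tested genes. The log2 fold change was above 0 for 6 genes and below 0 for 4, with a median of 0.25, beside a median of -0.03 and quartiles of -0.43 and 0.31 over all tested genes. The 3 Dnmt3b-/- embryos all lay above the 3 WT embryos for Sox9, Snai2, Twist1 and Pax3, and for no gene did they all lie below. Such a lack of overlap was seen in 51.8% of all tested genes, with Dnmt3b-/- embryos higher in 25.3% and lower in 26.5%. WT embryo 2 was the lowest WT embryo for 8 of the 10 genes, against 41.4% of all tested genes. Without it the median of the 10 genes was 0.07, Sox9 and Snai2 were again higher, and Ets1 was lower, while 34.6% of all genes passed the threshold.

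**Figure D1:**
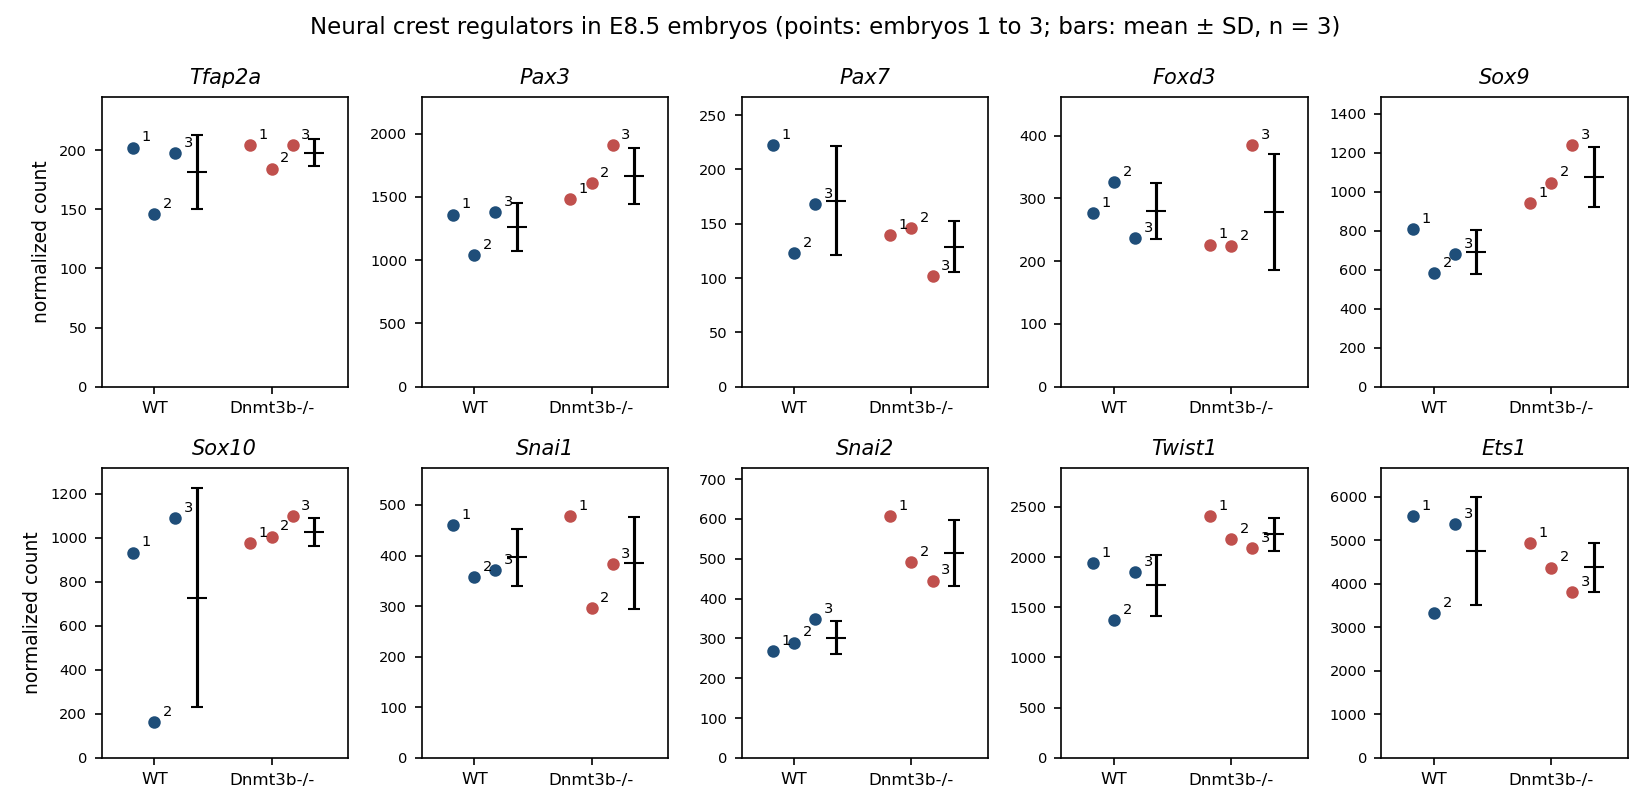
Normalized counts (vertical axis, from 0) of the 10 regulators in each of 3 WT and 3 Dnmt3b-/- embryos, with points numbered by embryo and bars for the mean ± SD (n = 3). The points of the genotypes are separate for Pax3, Sox9, Snai2 and Twist1, and the lowest Sox10 point is WT embryo 2.

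The border genes come first in the order of crest formation. Tfap2a encodes the AP-2 alpha factor, which acts both in border formation and in crest specification (chromosome 13, 40713802 to 40738238, minus strand). It was at 202, 146 and 197 normalized counts in WT embryos 1 to 3 and at 204, 184 and 204 in Dnmt3b-/- embryos 1 to 3. WT embryo 2 was the only low one, and the ranges overlapped. The means were 182 ± 31.2 and 198 ± 11.4 (SD, n = 3 each). The log2 fold change was 0.12, with a 95% interval of -0.36 to 0.59 (adjusted p = 0.690), and -0.02 without WT embryo 2. A lncRNA gene on the opposite strand, named Gm26688 in the RefSeq annotation, overlaps Tfap2a. The gene listed as Tfap2a-as1 among the counts had 0 to 17 raw counts, and whether it is the same gene was not checked. Whether the counting used the strand is not given in the sources used here, so reads of overlapping genes could not be assigned with certainty.

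Pax3 encodes a paired box factor of dorsal neural tube, crest and somites (chromosome 1, 78101267 to 78197136, minus strand). Its normalized counts were 1360.5, 1041 and 1379 in WT embryos and 1480.0, 1606 and 1911 in Dnmt3b-/- embryos. The lowest Dnmt3b-/- embryo lay just above the highest WT embryo, and WT embryo 2 was lowest of the 6. The log2 fold change was 0.40 (95% interval 0.07 to 0.73), and the adjusted p of 0.0606 missed the threshold. It was 0.28 (adjusted p = 0.121) without WT embryo 2 and 0.49 (adjusted p = 0.0451) without Dnmt3b-/- embryo 1, where 35.4% of all genes passed, and DESeq2 in place of edgeR gave 0.42 with an adjusted p of 0.0193, in a test that 40.2% of all genes passed. Pax7, the paralog of Pax3 (chromosome 4, 139737059 to 139833530, minus strand), was among the least abundant regulators. It was at 223, 123 and 168 normalized counts in WT embryos and at 139, 146 and 102 in Dnmt3b-/- embryos, with the highest value in WT embryo 1 and the lowest in Dnmt3b-/- embryo 3. Its ranges overlapped, and the log2 fold change of -0.41 had a 95% interval of -1.05 to 0.23 (adjusted p = 0.289). Without WT embryo 2 it was -0.60 (adjusted p = 0.113). The lncRNA gene Gm46873 overlaps Pax7 on the opposite strand.

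Of the crest specifiers, Foxd3 encodes a forkhead repressor that is among the earliest genes of premigratory crest (chromosome 4, 99656299 to 99658671, plus strand). It was at 277, 326 and 237 normalized counts in WT embryos and at 226, 224 and 385 in Dnmt3b-/- embryos. Dnmt3b-/- embryo 3 was the highest of all and the other Dnmt3b-/- embryos were the lowest, so that the genotypes overlapped fully. The means of 279.9 ± 44.6 and 279 ± 92.4 (SD, n = 3 each) gave a log2 fold change of -0.01, with a 95% interval of -0.59 to 0.58 (adjusted p = 0.988). It was 0.12 without WT embryo 2.

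Sox9 encodes an SRY-box factor that acts in crest survival and EMT and later in cartilage (chromosome 11, 112782210 to 112787757, plus strand). It was at 807, 581 and 681 normalized counts in WT embryos and at 939.9, 1047 and 1240.0 in Dnmt3b-/- embryos. Every Dnmt3b-/- embryo exceeded every WT embryo, and WT embryo 2 was lowest. The means of 689.7 ± 113 and 1076 ± 152 (SD, n = 3 each) correspond to a log2 fold change of 0.64 (SE 0.16, 95% interval 0.28 to 1.00, adjusted p = 0.0145). The gene passed the threshold with each of the 6 embryos left out in turn, at log2 fold changes of 0.53 to 0.77, the lowest without WT embryo 2 (adjusted p = 0.0264).

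Sox10 encodes the SRY-box factor that maintains migrating crest and its glial and pigment cell descendants (chromosome 15, 79154913 to 79164490, minus strand). Its normalized counts were 933, 162 and 1090.3 in WT embryos and 976, 1006 and 1099 in Dnmt3b-/- embryos. WT embryo 2 had 0.160 of the mean of the other WT embryos, from 141 raw counts against 1178 and 1232, while the other 5 embryos lay close together. Sox10 was the only one of the 10 regulators below 0.5 of that mean in WT embryo 2, where 4.30% of all tested genes lay so low. The coefficient of variation was 68.2% in WT and 6.27% in Dnmt3b-/- embryos. With all 6 embryos the log2 fold change was 0.49 with a wide 95% interval of -0.73 to 1.71 (adjusted p = 0.507). Without WT embryo 2 it was 0.02, and the interval narrowed to -0.26 to 0.30 (adjusted p = 0.914), so that nearly all of the difference in means rested on 1 library.

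Among the genes of EMT and migration, Snai1 and Snai2 encode zinc finger repressors of epithelial genes such as Cdh1. Snai1 (chromosome 2, 167538195 to 167542814, plus strand) was at 460.4, 357 and 372 normalized counts in WT embryos and at 478, 296 and 383 in Dnmt3b-/- embryos. Dnmt3b-/- embryos held both its highest and its lowest value. The log2 fold change was -0.04 (95% interval -0.51 to 0.43, adjusted p = 0.902), and -0.11 without WT embryo 2. Snai2 (chromosome 16, 14705852 to 14709395, plus strand) was at 268, 289 and 348 normalized counts in WT embryos and at 607, 491 and 445 in Dnmt3b-/- embryos, with a clear gap between the genotypes. Its means were 302 ± 41.4 and 515 ± 83.4 (SD, n = 3 each), the larger of the 2 differences that passed the test, with a log2 fold change of 0.77 (SE 0.18, 95% interval 0.37 to 1.18, adjusted p = 0.0107). It passed the threshold with each embryo left out in turn (adjusted p 0.0133 to 0.0493), and its log2 fold change was 0.74 without WT embryo 2.

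Twist1 encodes a bHLH factor of cranial crest and mesoderm (chromosome 12, 33957671 to 33959831, plus strand). It was at 1937, 1373 and 1848 normalized counts in WT embryos and at 2408, 2181 and 2087 in Dnmt3b-/- embryos. The genotypes did not overlap, and WT embryo 2 was lowest. The log2 fold change of 0.37 (95% interval 0.06 to 0.69) missed the threshold at an adjusted p of 0.0662, was 0.23 (adjusted p = 0.103) without WT embryo 2, and passed with DESeq2 (0.39, adjusted p = 0.0193). Ets1, an ETS factor of cranial crest and endothelium (chromosome 9, 32636241 to 32757820, plus strand), was at 5550.4, 3325 and 5359 normalized counts in WT embryos and at 4937, 4369.8 and 3808 in Dnmt3b-/- embryos. WT embryo 2 was lowest of all, and the other WT embryos were highest. The log2 fold change was -0.12 (95% interval -0.54 to 0.31, adjusted p = 0.655) with all embryos, -0.32 (adjusted p = 0.0487) without WT embryo 2 and 0.01 without WT embryo 1. The direction and the call of Ets1 thus rested on which WT embryos were used.

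**Figure D2:**
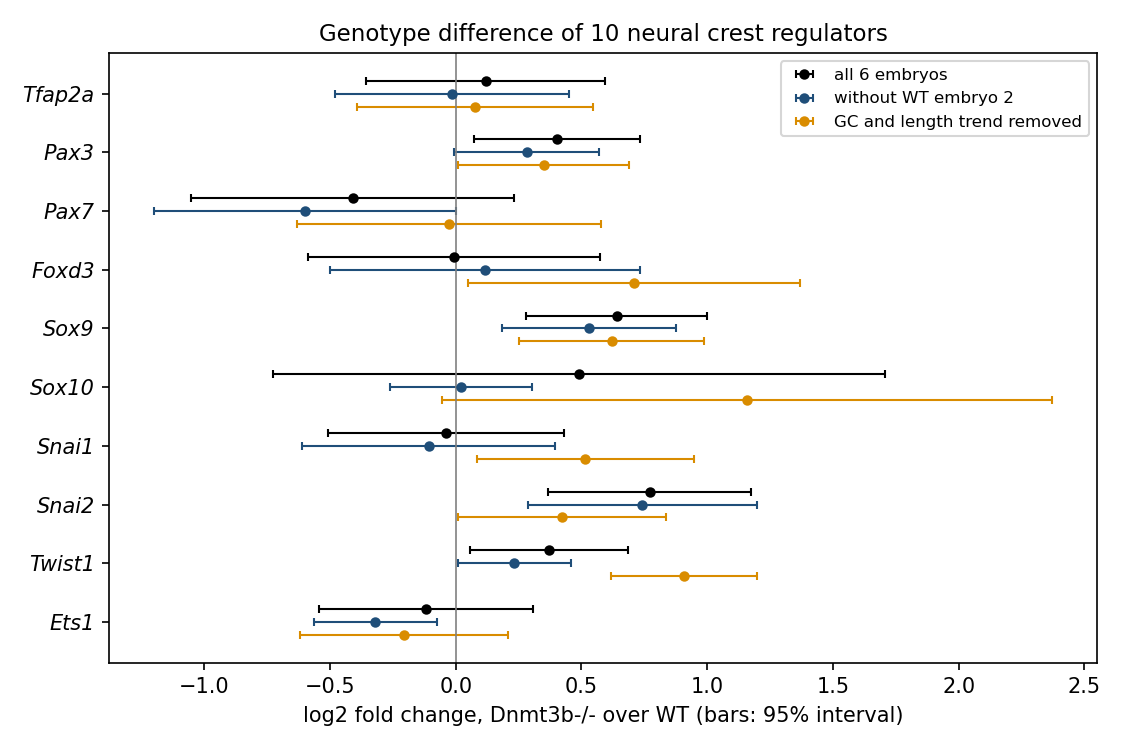
Genotype difference as log2 fold change (horizontal axis) with its 95% interval for each of the 10 regulators, with all 6 embryos (black), without WT embryo 2 (blue) and with the trend on GC content and exon length removed (orange). Sox9 stays between 0.53 and 0.64 in these 3 fits, while Sox10 runs from 0.02 to 1.16.

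The exons of the 10 genes differ in base composition, from 42.6% GC in Snai2 to 64.2% in Foxd3, around a median of 50.3% over all tested genes. Removing from each library the trend of counts on exonic GC content and length left Sox9 higher (log2 fold change 0.62, adjusted p = 0.0259). Snai2 then missed the threshold (0.42, adjusted p = 0.128), and Twist1 passed it (0.91, adjusted p = 0.00273). Foxd3 went from -0.01 to 0.71 (adjusted p = 0.112), Snai1 from -0.04 to 0.52 (adjusted p = 0.0815) and Sox10 from 0.49 to 1.16 (adjusted p = 0.150). Twist1, Foxd3, Snai1 and Sox10, whose values rose most, have exons of 59.2%, 64.2%, 59.8% and 61.7% GC. In this fit 23.5% of all tested genes passed, and the median of the 10 genes was 0.47. Sox9 was therefore the only regulator that passed in the fit with all embryos, in each fit that left out an embryo and after the removal of the trend.

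Levels can be compared between genes only per length, and for this FPKM values were computed from the counts and the RefSeq exon length. In WT embryos the order of the mean levels was Twist1, Ets1, Pax3, Sox10, Snai1, Sox9, Snai2, Foxd3, Tfap2a and Pax7. Twist1 was at 21.9 ± 3.9 FPKM and Ets1 at 18.4 ± 4.8 FPKM (SD, n = 3 each), and their ranges overlapped. Pax3 at 6.77 ± 1.02, Sox10 at 5.58 ± 3.80 and Snai1 at 5.08 ± 0.72 FPKM formed a middle group whose neighbours overlapped. Sox9 at 3.45 ± 0.57, Snai2 at 3.08 ± 0.42 and Foxd3 at 2.45 ± 0.39 FPKM followed, and Tfap2a at 0.968 ± 0.166 and Pax7 at 0.832 ± 0.243 FPKM were lowest. Between neighbours in this order, the ranges of the WT embryos were separate at 3 places, between Ets1 and Pax3, between Snai1 and Sox9 and between Foxd3 and Tfap2a. Without WT embryo 2 Sox10, at 7.75 FPKM, came before Pax3, at 7.35 FPKM, so that the order of this pair rested on that library, and the rest of the order was the same. The neural border gene Tfap2a was present at a far lower level than the mesenchymal gene Twist1 in the same embryos.

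In Dnmt3b-/- embryos the order was the same but for Snai1, which came after Sox9 and Snai2. Sox9 was at 5.39 ± 0.76 FPKM, Snai2 at 5.26 ± 0.85 and Snai1 at 4.94 ± 1.16 (SD, n = 3 each), with overlapping ranges. Twist1 was at 28.4 ± 2.1 FPKM and separate from Ets1 at 16.9 ± 2.2, Pax3 was at 8.94 ± 1.19 and Sox10 at 7.86 ± 0.49. Foxd3 at 2.44 ± 0.81, Tfap2a at 1.05 ± 0.06 and Pax7 at 0.627 ± 0.115 FPKM were again lowest, each separate from its neighbours.

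**Figure D3:**
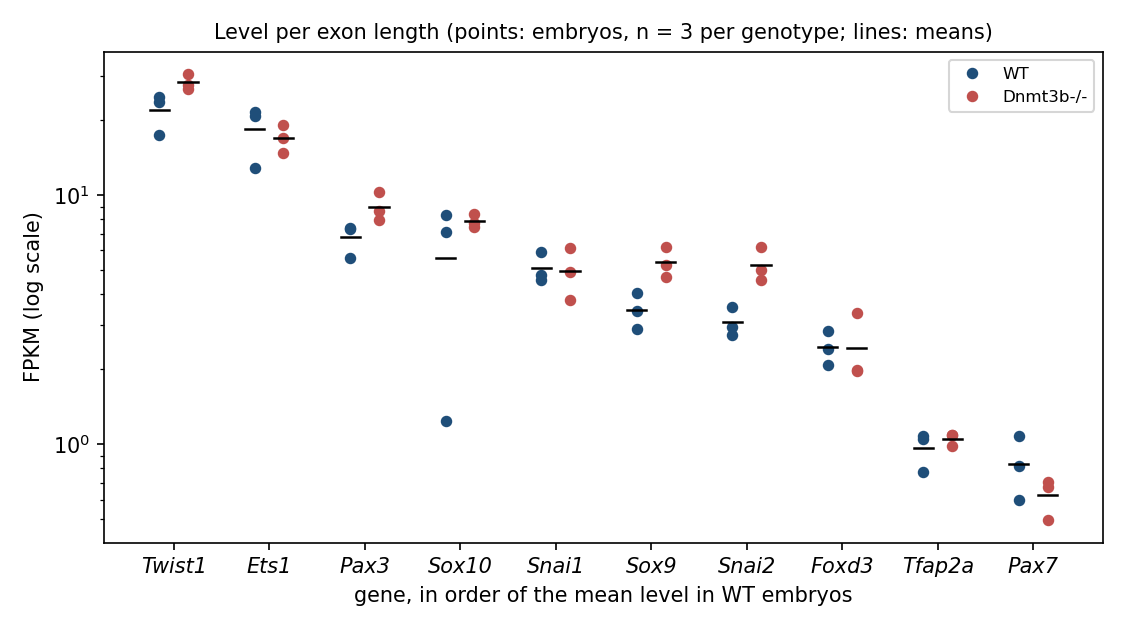
Level of the 10 regulators in FPKM (vertical axis, log scale) in 3 WT (blue) and 3 Dnmt3b-/- (red) embryos, ordered by the WT mean, with lines for the means. Levels fall from 21.9 FPKM for Twist1 to 0.832 FPKM for Pax7 in WT embryos.

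Paralogs were then compared within each embryo, where the library size cancels. The ratio of Snai2 to Snai1 in FPKM was 0.464, 0.647 and 0.747 in WT embryos and 1.01, 1.32 and 0.928 in Dnmt3b-/- embryos, without overlap. Snai1 was thus the more abundant paralog in every WT embryo and Snai2 in 2 of the Dnmt3b-/- embryos. The ratio of Pax3 to Pax7 was 6.75, 9.37 and 9.06 in WT embryos and 11.7, 12.2 and 20.7 in Dnmt3b-/- embryos, also without overlap. The ratio of Sox9 to Sox10 was 0.565, 2.35 and 0.409 in WT embryos and 0.630, 0.681 and 0.738 in Dnmt3b-/- embryos, with WT embryo 2 alone above 1. On the log2 scale the differences of Dnmt3b-/- less WT were 0.82 for Snai2 to Snai1, 0.79 for Pax3 to Pax7 and -0.26 for Sox9 to Sox10. The two-sided exact permutation test gave p = 0.1 for Snai2 to Snai1 and Pax3 to Pax7, the smallest value that 3 against 3 embryos allow (0.15 after Benjamini-Hochberg adjustment over the 3 ratios), and p = 1 for Sox9 to Sox10. Without WT embryo 2 the differences were 0.87, 0.88 and 0.50, so that the direction of Sox9 to Sox10 turned. Snai2 and Snai1 differ in exonic GC content, at 42.6% and 59.8%. After the removal of the GC and length trend the difference of their fitted log2 fold changes was -0.09, with the direction lost, that of Pax3 and Pax7 was 0.38, and that of Sox9 and Sox10 was -0.54.

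**Figure D4:**
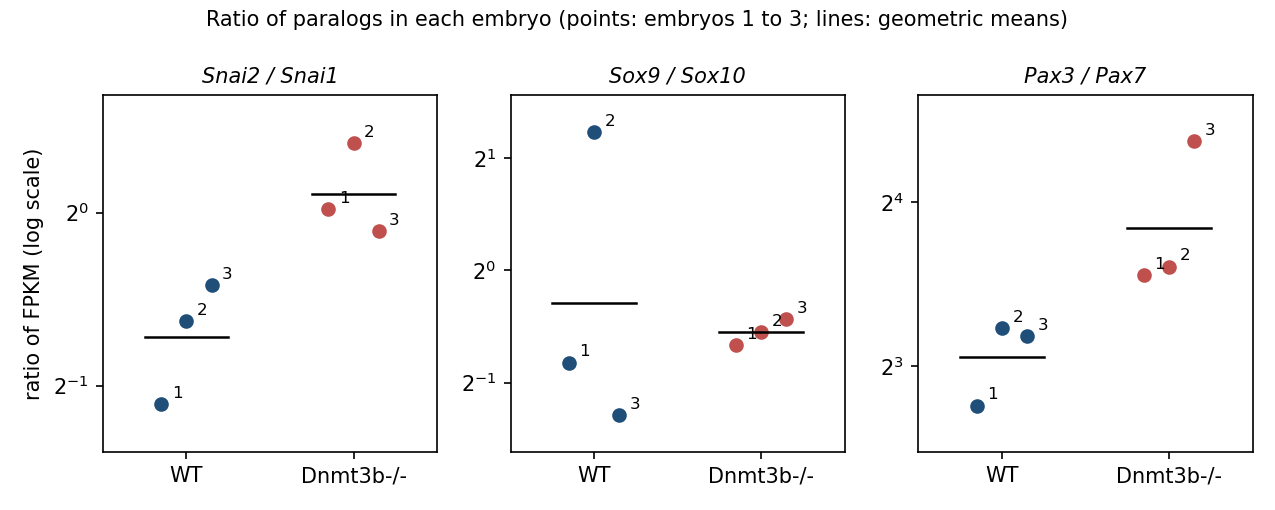
Ratio of FPKM (vertical axes, log scale) of 3 pairs of paralogs in each embryo, with points numbered by embryo and lines for the geometric means (n = 3 per genotype). Snai2 to Snai1 and Pax3 to Pax7 are higher in all Dnmt3b-/- embryos, and the outlying Sox9 to Sox10 ratio of 2.35 is WT embryo 2.

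Other genes of crest formation were taken from 5 lists of 64 genes, of which 63 were tested. Past the same threshold 9 rose and 7 fell, with a median log2 fold change of 0.07, beside the 17.6% and 18.1% of all tested genes. Of 11 neural plate border genes, Zic2 and Zic5, zinc finger genes of the neural folds, rose, and Msx1, a target of BMP signalling, fell, with a median of 0.40. Zic2 was at 2622, 2849.9 and 2067 normalized counts in WT and at 3909.9, 5151 and 6458 in Dnmt3b-/- embryos (log2 fold change 1.04, adjusted p = 0.00365). It was 1 of 5 crest list genes past a 2-fold change.

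The border genes Zic1 and Tfap2b repeated the pattern of Sox10. Zic1 was at 719, 52.8 and 813 normalized counts in WT embryos and at 1343, 1460.1 and 971 in Dnmt3b-/- embryos. Tfap2b was at 591, 104 and 569.9 in WT embryos and at 762, 859 and 799 in Dnmt3b-/- embryos. With all embryos neither passed the threshold (adjusted p = 0.204 and 0.186). Without WT embryo 2 both were higher in Dnmt3b-/- embryos, with log2 fold changes of 0.72 (adjusted p = 0.0149) and 0.47 (adjusted p = 0.0207), unlike Sox10 at 0.02. Zic1 and Tfap2b were picked once their values had been seen.

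Of 13 specification and EMT genes, Cdh11, a mesenchymal cadherin, and Zeb1 and Zeb2, zinc finger repressors of Cdh1 that act in EMT beside the Snail proteins, rose. Id3, an inhibitor of bHLH factors and a target of BMP signalling, and Rhob, a small GTPase, fell. Id3 showed the lowest p of all crest lists, at 3732, 3206 and 4082 normalized counts in WT and 1741, 1681 and 1502 in Dnmt3b-/- embryos (log2 fold change -1.16, adjusted p = 0.000506). Zeb2 changed by 0.84 (adjusted p = 0.00135) and Zeb1 by 0.74 (adjusted p = 0.00353), both larger on the log2 scale than Sox9. Id2, the most abundant gene of this list, was at 136 ± 10 FPKM in WT and 118 ± 8 FPKM in Dnmt3b-/- embryos (SD, n = 3 each, adjusted p = 0.0826).

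Of 15 migratory crest genes, Mitf, the regulator of pigment cells, rose, and none fell, with a median of 0.18. Crabp1, a retinoic acid binding protein and the most abundant of them, was at 11512, 5788 and 14414 normalized counts in WT and at 10225, 9930.1 and 9128 in Dnmt3b-/- embryos, within the WT range. WT embryo 2 was the lowest WT embryo for 13 of the 15 genes, against 41.4% of all tested genes, at a median of 0.584 of the other WT embryos. Without it Crabp1 and Erbb3, a neuregulin receptor of migrating crest, were lower in Dnmt3b-/- embryos, by -0.41 (adjusted p = 0.0197) and -0.50 (adjusted p = 0.0141). In that fit 34.6% of all genes passed the threshold. With all embryos and the GC and length trend removed, Crabp1 was at 0.37 (adjusted p = 0.353) and Erbb3 at -0.24 (adjusted p = 0.318). Low levels of migratory crest genes and of Sox10 thus came together in the library of WT embryo 2, but were not particular to the crest. It was also the lowest WT embryo for 9 of 12 endothelial and 6 of 7 erythroid markers, and for 0 of 9 streak and tailbud markers.

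Of 14 pharyngeal arch and facial mesenchyme genes, Prrx1, a homeobox gene of limb and facial mesenchyme, Hand2 and Ednra, the endothelin receptor of arch crest, rose, with a median of 0.18. Hand2, a bHLH gene of the arches and the heart, was at 1265, 1164 and 1011 normalized counts in WT and at 1726, 1694 and 2050.3 in Dnmt3b-/- embryos (log2 fold change 0.67, adjusted p = 0.00428). Pdgfra, a growth factor receptor of crest mesenchyme and one of the most abundant genes of this list, had a log2 fold change of -0.04 (adjusted p = 0.712).

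Of 10 inducing signals and antagonists, none rose, and Wnt3a and Wnt6, WNT ligands of the dorsal neural tube and ectoderm, and Chrd, a secreted BMP antagonist, fell, with a median of -0.39. Wnt3a was at 519.8, 785 and 560.2 normalized counts in WT and at 291, 382 and 232 in Dnmt3b-/- embryos (log2 fold change -1.04, adjusted p = 0.00907). Wnt6 fell by 0.98 on the log2 scale (adjusted p = 0.00184). Chrd (-1.30, adjusted p = 0.0489) missed the threshold without WT embryo 2, at -0.99 (adjusted p = 0.145). The BMP ligands Bmp4 and Bmp7, most abundant in this list, had log2 fold changes of 0.07 and 0.13 (adjusted p = 0.753 and 0.279). After the removal of the GC and length trend Wnt3a, Wnt6 and Chrd no longer passed, and Bmp7 rose, at 0.46 (adjusted p = 0.0112).

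Across the 5 lists 9 genes rose and 2 fell after the removal of this trend, where 23.5% of all tested genes passed in either direction, but the genes were not the same. Zic2, Zic5, Zeb1, Zeb2 and Hand2 were again higher and Id3 again lower. Cdh11 (0.13), Mitf (0.50), Prrx1 (0.27) and Ednra (0.40) were no longer past the threshold, and Dlx5, Id1, Myc and Bmp7 were higher in their place. Msx1, at -0.06, and Rhob, at -0.01, no longer passed, and Id2 was lower, at -0.57 (adjusted p = 0.00369).

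**Figure D5:**
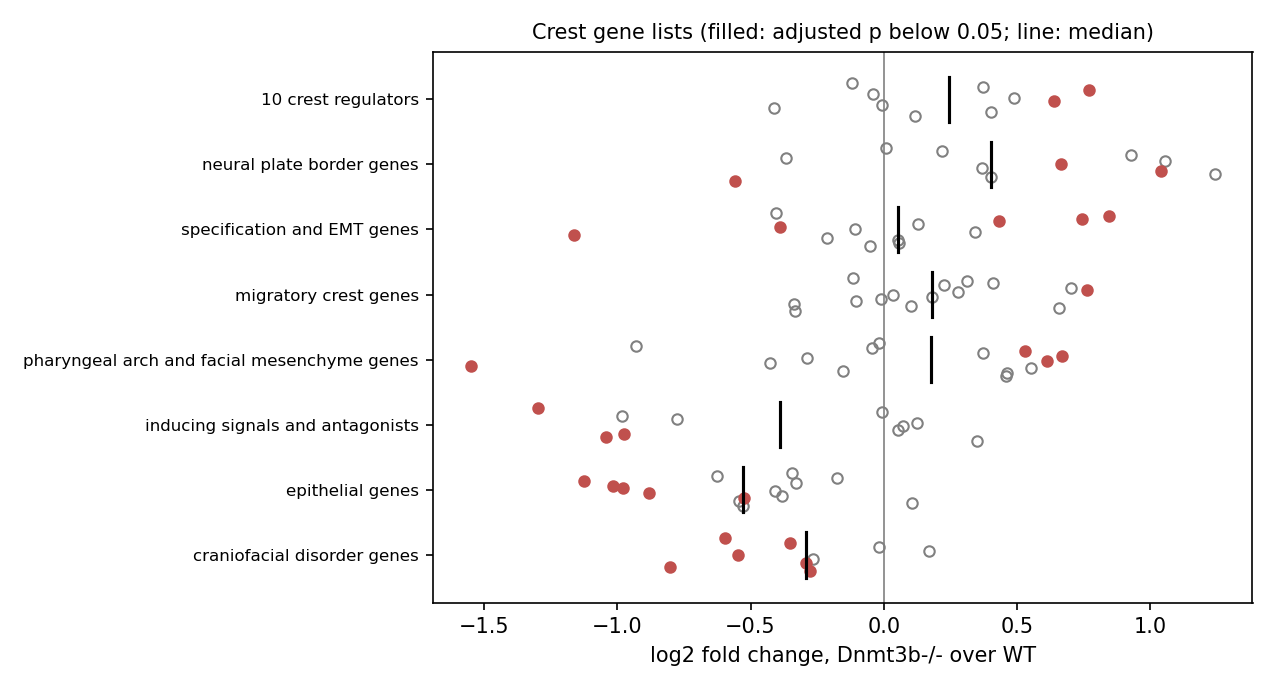
Log2 fold change between genotypes (horizontal axis, above 0 where Dnmt3b-/- is higher) of each tested gene of the 10 regulators, the 5 crest lists, the epithelial genes and the craniofacial disorder genes, filled where the adjusted p is below 0.05, with a line at each median. The median is 0.25 for the regulators and -0.53 for the epithelial genes.

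The cell types that share the regulators were read from their markers. In the fit of all 6 embryos 17.6% of all tested genes were higher and 18.1% lower in Dnmt3b-/- embryos past the threshold. The genotypes did not overlap for 51.8% of all tested genes. Of 12 paraxial mesoderm and somite markers Tcf15 and Foxc1 rose and none fell, and their summed level was 7580 to 10083 normalized counts in WT and 10264 to 11245 in Dnmt3b-/- embryos, without overlap. Of 8 otic and other placode markers Six4 and Eya1 rose, and the sums were 5416 to 6965 and 7640 to 9437. Both sums moved in the direction of Sox9, Pax3 and Twist1, and their part in those differences was not tested. The single somite markers were divided, with log2 fold changes above 0 for 7 and below 0 for 5, and a median of 0.06. WT embryo 2 was the lowest WT embryo for 9 of the 12, and without it their median was -0.09. The placode markers, with 7 above 0 and 1 below, had a median of 0.33, and of 0.08 without WT embryo 2. Of 12 endothelial markers Fli1 rose and Kdr fell, with overlapping sums of 16750.5 to 18491 and 15393 to 19593. Of 8 dorsal neural tube markers Wnt3a and Msx1 fell, with sums of 3824 to 4004 and 3493 to 3923. Of 10 neural plate and brain markers Sox1, Pax6 and Six3 rose and Sox2 and Sox3 fell, and of 7 surface ectoderm markers Wnt6 fell. Amn fell of the 8 extraembryonic endoderm markers, a call that was lost without WT embryo 2 (log2 fold change -1.31, adjusted p = 0.127, against -2.59), and Evx1 of the 9 streak and tailbud markers. None of 5 tested head mesoderm markers, 7 erythroid markers or 3 tested trophoblast and decidua markers passed the threshold. The defining trophoblast and decidua genes Prl3d1, Prl2c2, Tpbpa and Prl8a2 were at 0 counts in all 6 embryos.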

How the data were processed

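Expression was measured in 3 WT and 3 Dnmt3b-/- E8.5 embryos. The authors aligned the read pairs (2 × 75 bases, stranded, ribosomal RNA depleted) to mm10 with TopHat2 2.0.12 and deposited raw counts on RefSeq exons from HTSeq 0.6.0. The normalized signal, the log2 fold changes and the p-values that the authors deposited beside them come from DESeq2 1.4.5 and were not used. Genotypes were tested without covariates in edgeR 4.0.16 (R 4.3.3, TMM, quasi-likelihood test, Benjamini-Hochberg) on 15114 genes, each averaging 10 counts or more. Called genes meet the study's thresholds, 0.05 for the adjusted p and 2 for the fold change. Intervals cover 95%. FPKM and GC content used RefSeq exons of GRCm38.p6, matched for 99.2% of genes (22604 by symbol and 1276 by an older symbol). Alternatives were other filters and scalings, DESeq2 1.42.0, limma 3.58.1 on log2(CPM + 1), a replicate block, removal of the GC and length trend by splines with 5 degrees of freedom, and each embryo left out. The paralog ratios without WT embryo 2 and after the GC correction were added after seeing the data. The labels do not say which embryos shared a litter, and p-values measure the spread between these embryos.

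The 10 regulators and all lists were chosen with earlier results of these data known. Besides them, genes past the threshold with a change above 2-fold and the 2 most abundant of a list were to be named, together with Dnmt3b. Genes that passed the threshold below a 2-fold change, genes named for a change in the GC-corrected fit, and Zic1, Tfap2b, Erbb3 and Krt19, were named after their values were seen. Some results are not reported here.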

Additional observations from a re-analysis of the deposited data

How the results depend on the processing

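Of 150 log2 fold changes of the 10 regulators under 15 alternatives, 128 kept their direction and their side of the threshold, 3 lost it, 6 gained it and 13 changed sign. The changes of sign were in genes that lay between -0.12 and 0.12 in the fit of all embryos. Foxd3 turned to 0.012 with RLE size factors and with DESeq2, to 0.71 without the GC and length trend, to 0.12 without WT embryo 2, and to 0.13 without Dnmt3b-/- embryo 1 or 2. Snai1 turned to 0.52 without the GC and length trend, to 0.08 without WT embryo 1 and to 0.12 without Dnmt3b-/- embryo 2. Tfap2a was -0.015 without WT embryo 2, and Ets1 was 0.0078 without WT embryo 1. With each embryo left out in turn, Foxd3 ranged from -0.30 to 0.13, Tfap2a from -0.015 to 0.20, Snai1 from -0.21 to 0.12 and Ets1 from -0.32 to 0.0078. The cause was not tested.

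The number of regulators past an adjusted p of 0.05 was 2 except for 4 with DESeq2, 3 in the fits without WT embryo 2 or without Dnmt3b-/- embryo 1, and 1 with the replicate block and the GC correction together. Of the crest lists 14 genes rose with DESeq2 in place of 9, and 2 fell after the GC correction in place of 7. Over all genes, 320 were called higher and 571 lower, against 177 and 280 with limma and 304 and 137 after the GC correction. Lower genes were 64.1% of the called genes, 74.3% with total counts as scaling and 31.1% after the GC correction. With an adjusted p below 0.05 alone, 2654 genes were higher and 2741 lower, and 2 regulators passed in place of 0.

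Leaving out each embryo gave medians of the 10 regulators between 0.07 and 0.33, and 2 to 3 regulators past the threshold. Crest list genes numbered 7 to 12 higher and 5 to 8 lower, and all called genes 242 to 381 higher and 391 to 774 lower. None of 60 FPKM means moved by more than 1 SD, but leaving out 1 of 3 values cannot move their mean that far. This count therefore says nothing about how stable the levels were. The largest dependence on a single library named above, Sox10 in WT embryos, went from 5.58 to 7.75 FPKM without WT embryo 2. Deviations of same-numbered embryos correlated at -0.05, -0.15 and -0.01, and those of differently numbered embryos at -0.08 to 0.14. With 3 embryos a genotype these values cannot tell whether same-numbered embryos shared a litter or a preparation. With the replicate block Sox9 was at 0.64 (adjusted p = 0.0293) and Snai2 at 0.77 (adjusted p = 0.0329), and the calls numbered 265 higher and 516 lower. The paralog difference turned to 0.50 without WT embryo 2 for Sox9 to Sox10 and to -0.095 after the GC correction for Snai2 to Snai1. With the block and the GC correction together, Sox9 was at an adjusted p of 0.0504, Snai2 at 0.41 (adjusted p = 0.210), Foxd3 at 0.66, Snai1 at 0.51, 118 genes were called lower and 3 crest list genes fell. With 3 embryos a genotype, differences inside an interval as wide as that of Foxd3, -0.59 to 0.58, could not be detected.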

Other observations

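Of 14 epithelial genes, a group that holds known targets of the Snail and Zeb repressors, 5 fell and none rose, with a median log2 fold change of -0.53, beside 18.1% of all tested genes lower. Their summed level was 33702, 50357 and 34408 normalized counts in WT embryos 1 to 3 and 22681 to 27940 in Dnmt3b-/- embryos, with the highest sum in WT embryo 2. Krt18, a keratin of simple epithelia and the most abundant of them, was at 8487, 13994 and 9743 normalized counts in WT embryos and at 6558, 5021 and 4367 in Dnmt3b-/- embryos (log2 fold change -1.01, adjusted p = 0.00620, edgeR quasi-likelihood test). Its partner Krt8 fell by 0.98 (adjusted p = 0.00969), and Crb3, a gene of apical polarity, fell by 1.12 (adjusted p = 0.00790). Cldn4 and Cldn7, tight junction genes, were the others that fell. WT embryo 2 was the highest WT embryo for 10 of the 14 genes, against 35.9% of all tested genes. Without it the median was -0.39 and 5 genes again fell. Cldn7 then missed the threshold (-0.55, adjusted p = 0.107), and Krt19, another keratin, passed in its place (-0.45, adjusted p = 0.0178). Cdh1, the classical Snail target, had a log2 fold change of -0.53 (adjusted p = 0.149) and of -0.13 without WT embryo 2, where it was highest. After the removal of the GC and length trend Krt18 alone passed, at -0.64 (adjusted p = 0.0320).

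Of 9 genes mutated in human craniofacial disorders, Tcof1, Polr1c, Polr1d, Kmt2d, Eftud2 and Efnb1 fell and none rose, with a median of -0.29, beside 18.1% of all tested genes lower. Polr1c, a subunit of RNA polymerases I and III, was at 3029, 2867 and 3347 normalized counts in WT and at 1816, 1785 and 1700.1 in Dnmt3b-/- embryos (-0.80, adjusted p = 0.000724), a narrow spread in each genotype. It was the only one of the 9 that passed after the removal of the trend, at -0.60 (adjusted p = 0.00254). In that fit Kmt2d turned to 0.32 and Tcof1 to 0.25, and neither passed.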
